A study of Mus musculus with 16 samples.

Results

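The change in gene expression of the mouse retina between postnatal day 7 (P7) and postnatal day 14 (P14) was measured in control animals. The comparison takes the 2 libraries labelled control at P7 and the 2 labelled control at P14, that is 4 of the 16 libraries of the series, and all 21115 genes with enough counts to be tested. It was chosen by genotype and age labels alone, so no measured value selected it. The remaining 12 libraries are pairs of controls at P1 and P30 and of Uxt CKO retinas at P1, P7, P14 and P30; they entered the estimate of the spread and served for comparison. All mice are of strain C57BL/6. The CKO carries loxP sites around an exon of Uxt, a gene for a prefoldin-like chaperone, and a Cre driven by Chx10, a transcription factor of retinal progenitors that bipolar cells keep. The genotype of the controls is given only as control, so whether they carry Cre or a floxed allele is not known here. The labels do not say whether the libraries of a group came from separate animals, pooled retinas or both eyes of a mouse, and p-values therefore measure only the spread between these libraries, which may be technical.

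The second postnatal week is the time when a mouse retina becomes able to see. In the first week the last progenitors stop dividing and produce rods, bipolar cells and Müller glia. In the second, rods and cones build outer segments, the stacked membranes that hold the visual pigment. Photoreceptors then form ribbon synapses with bipolar and horizontal cells, and the eyes open near its end. Light closes cation channels in the outer segment through a cascade of visual pigment, transducin and a cyclic GMP phosphodiesterase. The fall in glutamate release is read by ON bipolar cells through the receptor mGluR6 and the channel TRPM1.

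Total counts were 17910122 and 18989955 in the P7 controls and 19690787 and 19286771 in the P14 controls, within the range of 15807152 to 22815404 over the series. A count of 0, for which 3 counts is the upper limit, allowed levels up to between 0.147 and 0.164 CPM (counts scaled to a common library total) in these 4 libraries. This limit and the intervals below take in counting error alone, because copies of 1 molecule made by PCR cannot be recognised here. Levels below are CPM on library sizes scaled by TMM, which sets the bulk of genes equal between libraries. Replicates of the P7 and P14 controls scattered 1.70 and 1.54 times as much as pure counting would give (chi-square per degree of freedom), so none was a duplicate of another. The P30 pairs stood apart from the others, at 4.38 for controls and 31.7 for those labelled CKO, and they enter the shared estimate of the spread.

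The labelled tissue was checked against marker genes. Rod, bipolar, amacrine and Müller glia genes were abundant in all 4 libraries, and so were genes of tissues that touch the retina. Crystallins, the proteins of the lens, made up 6.03% and 6.19% of the counts at P7 and 9.69% and 9.84% at P14. In the list of 25 lens genes 23 rose, and 9 of these calls were lost without replicate 1 at P7 and 9 with library size alone. The 2 ages also differed in sex-linked genes: Xist, which silences an X chromosome in female cells, was at 1.82 and 2.45 CPM in the P7 controls and 1194 and 1211 CPM in the P14 controls. The Y-linked Kdm5d was at 48.2 and 48.3 CPM at P7 and had no count in either library at P14, and Ddx3y, Eif2s3y and Uty, also on the Y chromosome, had 1 or 2 counts over both P14 libraries. By these genes the P7 controls are male and the P14 controls female, so age and sex cannot be told apart in this comparison. Of the tested genes on autosomes 35.0% were called, of those on the X chromosome 32.9%, and 7 of 9 on the Y chromosome. The X-linked Kdm6a, Kdm5c, Eif2s3x and Ddx3x, which escape silencing, rose by 0.61, 0.53, 0.54 and 0.35 on the log2 scale.

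At an adjusted p under 0.05 in edgeR's quasi-likelihood test with Benjamini-Hochberg adjustment, 7375 of the 21115 genes (34.9%) differed between P7 and P14. Of these 3941 (18.7%) rose and 3434 (16.3%) fell. At least 2-fold changes were called for 1936 genes (9.17%), with 1089 (5.16%) up and 847 (4.01%) down, and at least 8-fold changes for 129 up and 295 down. Without the 4 P30 libraries 10002 genes were called, 5023 up and 4979 down, and with the 8 control libraries alone 9110. Both P14 libraries lay above both P7 libraries for 37.1% of genes and below them for 34%. The split depends on the scaling. With library size alone 2438 genes rose and 6855 fell, and with scaling on genes of inner retinal neurons 2379 rose and 3609 fell; these scalings moved the median of all genes by -0.18 and -0.11 from its value of 0.014 on the log2 scale. Changes are therefore given relative to the bulk of genes, and each count of list members below is to be read against the 18.7% of all genes that rose and the 16.3% that fell.

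**Figure D1:**
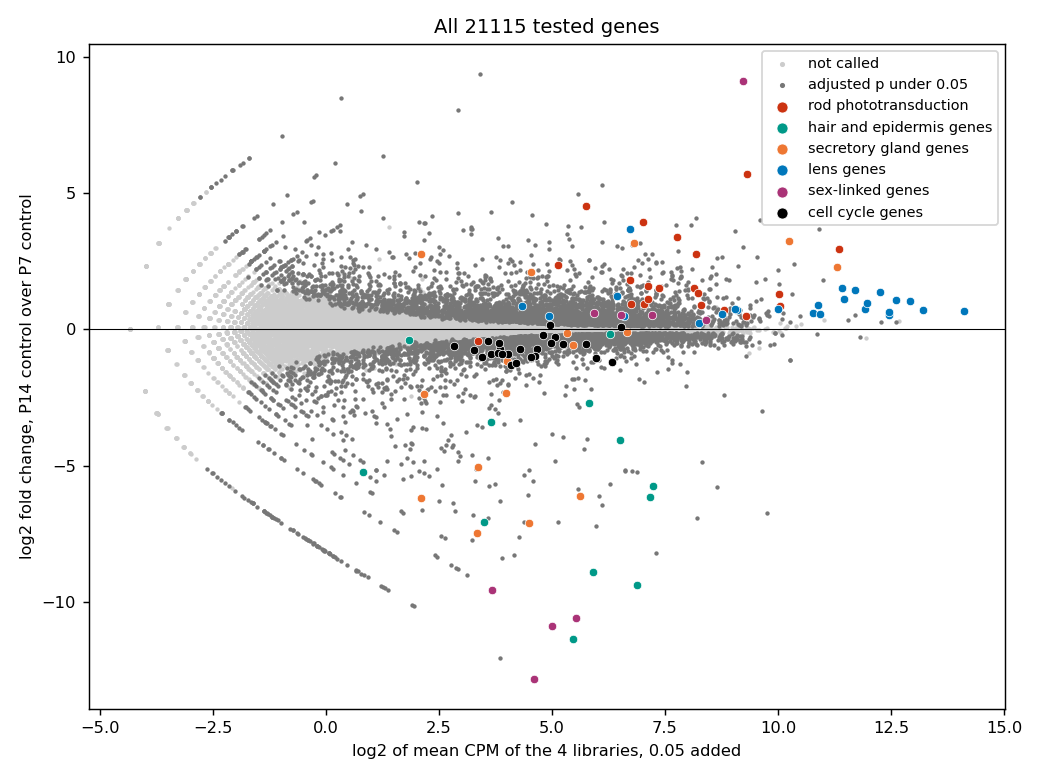
Each point is 1 of the 21115 tested genes, with the log2 of its mean CPM over the 4 libraries (0.05 added) on the x axis and its log2 fold change, P14 control over P7 control, on the y axis; dark points passed an adjusted p of 0.05 and colours mark 6 gene lists. Of the rod genes 20 of 21 lie above 0, cell cycle genes mostly below, lens genes above at the highest levels, and hair, gland and Y-linked genes among the largest falls.

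Promoters are shown for 2 groups of genes that moved together in opposite directions, rod phototransduction genes and cell cycle genes. The windows are 300 bases long, from 250 before to 50 after a transcription start, and come from RefSeq (GRCm38.p6), which had an entry for 14 of 21 rod genes and 23 of 27 cell cycle genes. The letters TAATCC, or GGATTA on the other strand, are the core to which CRX and OTX2 bind, the homeodomain factors of photoreceptors. They occurred in 8 of the 14 rod genes (57.1%) and in 8.14% of all 27025 genes with a window. They were present in 4 of 18 outer segment genes (22.2%), 2 of 10 cone genes (20%), 1 of 10 ON bipolar genes, 2 of 22 lens genes and 0 of 23 cell cycle genes. In capitals they are marked in 3 rod genes, at chr6:3993758-3994057 (plus strand) for Gngt1, chr5:72642703-72643002 (minus strand) for Cnga1 and chrX:142196887-142197186 (minus strand) for Gucy2f.
Gngt1: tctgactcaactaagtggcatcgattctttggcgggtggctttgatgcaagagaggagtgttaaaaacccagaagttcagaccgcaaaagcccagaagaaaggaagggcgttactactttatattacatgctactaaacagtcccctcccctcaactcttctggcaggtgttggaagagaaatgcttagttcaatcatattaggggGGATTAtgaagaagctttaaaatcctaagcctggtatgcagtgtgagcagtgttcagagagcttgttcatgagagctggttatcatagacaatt
Cnga1: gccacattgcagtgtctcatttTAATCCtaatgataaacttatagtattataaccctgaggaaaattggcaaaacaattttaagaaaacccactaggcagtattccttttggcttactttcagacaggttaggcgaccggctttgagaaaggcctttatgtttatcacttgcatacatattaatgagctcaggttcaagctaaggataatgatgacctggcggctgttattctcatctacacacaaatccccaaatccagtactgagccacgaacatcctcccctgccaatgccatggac
Gucy2f: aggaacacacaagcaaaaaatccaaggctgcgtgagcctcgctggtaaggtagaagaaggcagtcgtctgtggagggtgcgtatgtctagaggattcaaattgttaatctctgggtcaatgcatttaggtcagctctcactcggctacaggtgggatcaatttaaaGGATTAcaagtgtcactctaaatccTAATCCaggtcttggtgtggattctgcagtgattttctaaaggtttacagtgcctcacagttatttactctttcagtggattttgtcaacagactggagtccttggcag

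The second group is marked with TTTGAA, or TTCAAA on the other strand, the core of the element through which cell cycle genes are repressed in cells at rest. It occurred in 12 of 23 cell cycle genes (52.2%), in 2 of 14 rod genes and in 20.2% of all genes. The CCAAT box (ATTGG on the other strand), which lies beside that element in many of these promoters, was present in 20 of 23 cell cycle genes (87.0%), 13 of 18 outer segment genes (72.2%), 6 of 10 cone genes (60%), 7 of 14 rod genes and 41.1% of all genes. The windows of Top2a (chr11:99024140-99024439) and Ccnb2 (chr9:70421505-70421804), both on the minus strand, are shown with TTTGAA and TTCAAA in capitals. These matches describe letters, not binding, and are given without a test.
Top2a: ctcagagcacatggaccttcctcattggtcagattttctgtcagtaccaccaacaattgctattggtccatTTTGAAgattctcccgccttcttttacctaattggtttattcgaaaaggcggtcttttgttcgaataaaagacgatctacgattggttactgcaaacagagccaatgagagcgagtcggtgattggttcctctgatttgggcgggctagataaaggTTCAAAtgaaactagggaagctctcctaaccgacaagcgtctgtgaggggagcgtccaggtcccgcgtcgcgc
Ccnb2: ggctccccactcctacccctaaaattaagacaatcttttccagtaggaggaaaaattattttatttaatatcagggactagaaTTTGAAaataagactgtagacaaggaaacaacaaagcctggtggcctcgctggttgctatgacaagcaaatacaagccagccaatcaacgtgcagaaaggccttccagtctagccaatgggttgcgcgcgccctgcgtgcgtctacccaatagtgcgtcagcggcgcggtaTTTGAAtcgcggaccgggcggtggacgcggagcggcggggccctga

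Genes of rod phototransduction rose together. Of the 21 in the list 20 rose and none fell, against 18.7% of all genes that rose, and the median log2 fold change of the list was 1.51. None of the 20 calls was lost with the other scalings and filters, with DESeq2 or without any 1 library. Calls of single genes were not followed in the test against a 1.5-fold change. Gnat1, the alpha subunit of rod transducin (chr9:107674474-107679712, mm10, minus strand), was at 25.2 and 23.3 CPM at P7 and 1269.7 and 1244 CPM at P14. Its log2 fold change was 5.70 ± 0.08 (SE, n = 2 per age; adjusted p = 3.90e-20). Among genes called and reaching at least 5 CPM with no overlap between the ages, predicted genes left out, only the non-coding Xist rose more. Guca1b, a calcium sensor that drives cyclic GMP synthesis as calcium falls, went from 5.03 and 3.92 CPM to 101 and 104 CPM (4.52 ± 0.12; adjusted p = 2.71e-13). Slc24a1, the exchanger that extrudes calcium from the rod outer segment, went from 17.2 and 14.8 to 249 and 238 CPM (3.93 ± 0.09). In all 3 genes both P14 libraries lay far above both P7 libraries.

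The other components rose by unequal amounts. The beta and gamma subunits of transducin changed less than the alpha subunit: Gngt1 went from 82.4 and 89.2 to 237 and 251 CPM (1.51) and Gnb1 from 747 and 758 to 1354 and 1355 CPM (0.85). Among the phosphodiesterase subunits the catalytic Pde6a went from 37.9 and 37.2 to 396 and 401 CPM (3.41 ± 0.09). Its catalytic partner Pde6b went from 342 and 337 to 554 and 557 CPM (0.71 ± 0.05), and the inhibitory Pde6g rose by 1.35. For the cyclic GMP-gated channel, Cnga1 rose by 1.59 and Cngb1 by 0.88.

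Genes that end or regulate the light response rose as well. Rcvrn, the calcium-dependent inhibitor of the pigment kinase, went from 75.2 and 73.0 to 502 and 507 CPM (2.77 ± 0.07; adjusted p = 1.26e-16), and the kinase itself, Grk1, from 144 and 145 to 415 and 421 CPM (1.53). Sag, the arrestin of rods, went from 609.9 and 596 to 1494 and 1484 CPM (1.3 on the log2 scale). Of the complex that turns transducin off, the anchor Rgs9bp rose by 1.82, Rgs9 by 0.94 and Gnb5 by 0.93. The guanylate cyclases Gucy2e and Gucy2f rose by 1.12 and 2.35. Pdc, which binds the beta and gamma subunits of transducin, changed least among those called, from 509.5 and 538 to 717 and 739 CPM (0.48 ± 0.06). The member that did not pass was Guca1a, at 11.4 and 12.3 CPM at P7 and 9.64 and 7.89 CPM at P14 (-0.44 ± 0.19; adjusted p = 0.0987).

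These unequal rises changed the order of the levels per length of transcript (mean CPM per kilobase of annotated exon). At P7 Gnb1 stood at 176 and Pdc at 156, with Rcvrn at 71.2, Sag at 67.7 and Gnat1 at 8.0. At P14 Rcvrn stood at 485, Gnat1 at 415, Gnb1 at 317, Pdc at 217 and Sag at 167. Here and below, more cells of a type and more RNA per cell cannot be told apart in RNA of whole tissue. The Gucy2f gene is on the X chromosome, so the difference in sex stands beside its value.

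**Figure D2:**
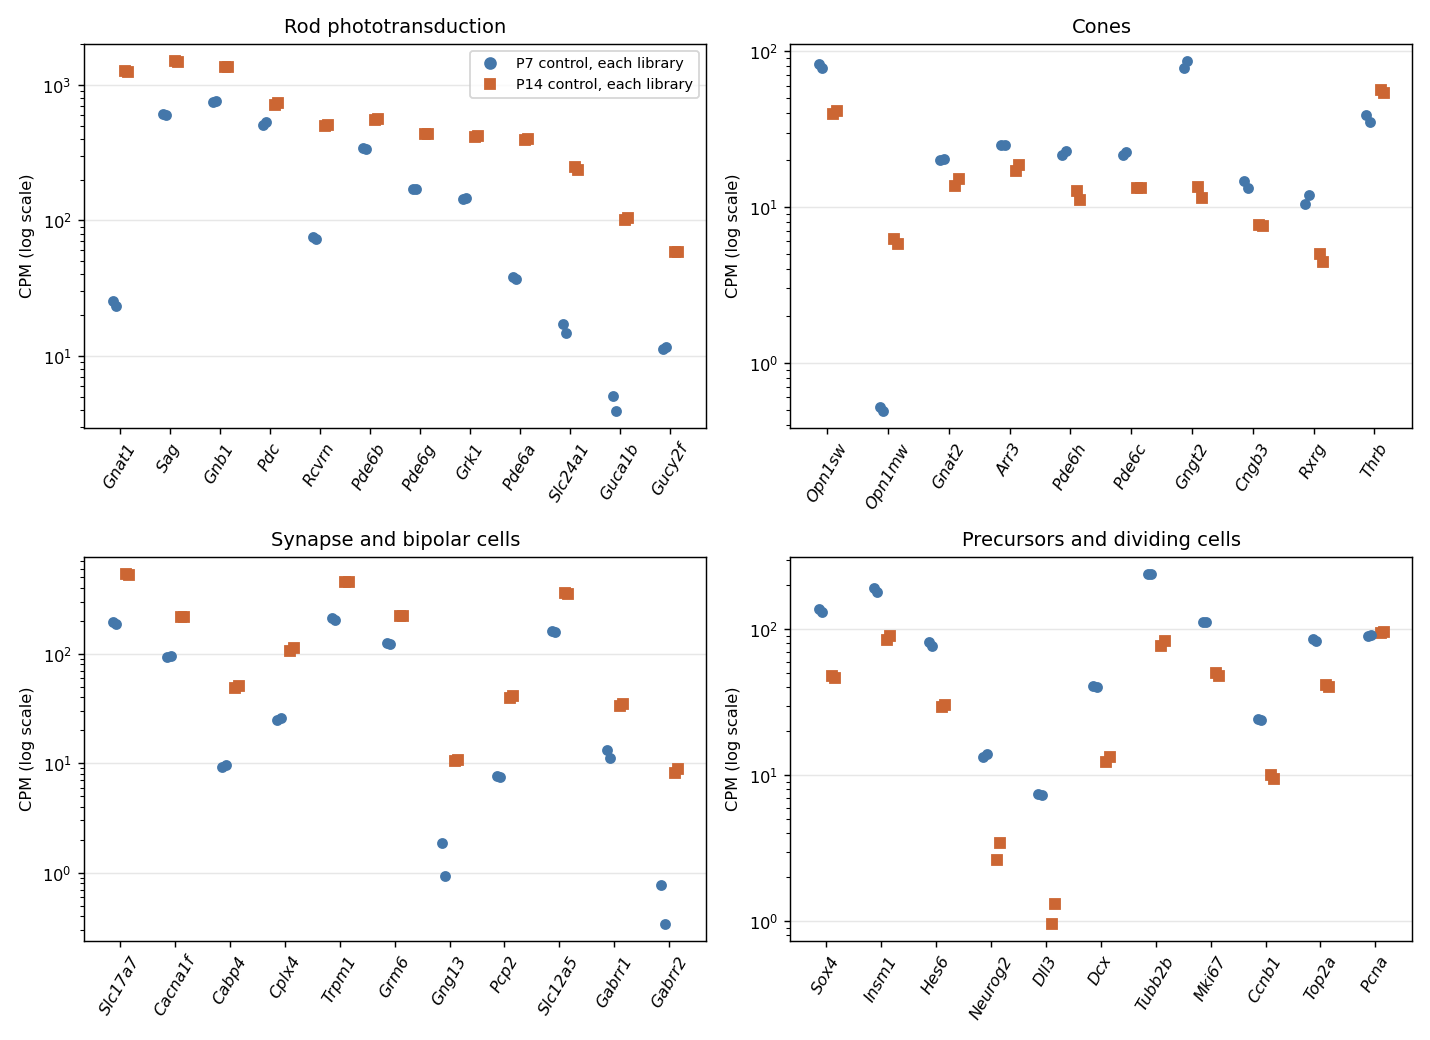
CPM on a log scale (y axis) of named genes (x axis) in each P7 control library (circles) and each P14 control library (squares), in 4 panels of rod, cone, synaptic and bipolar, and precursor genes. The 2 libraries of an age sit on or close to each other, rod and synaptic genes are higher at P14, most cone and precursor genes are lower, and Pcna did not pass the test.

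Cone genes moved the other way. In the list of 14, 3 rose and 9 fell (16.3% of all genes fell), with a median of -0.81. Gngt2, the gamma subunit of cone transducin, was at 77.8 and 85.9 CPM at P7 and 13.3 and 11.4 CPM at P14 (-2.73 ± 0.11; adjusted p = 1.19e-12). Its alpha subunit Gnat2 fell from 19.9 and 20.4 to 13.7 and 15.0 CPM (-0.49), the inhibitory phosphodiesterase subunit Pde6h from 21.5 and 23.0 to 12.6 and 11.1 CPM (-0.90), and the channel subunits Cnga3 and Cngb3 fell by 1.32 and 0.88. Rxrg, a nuclear receptor that takes part in the choice of cone opsin, fell from 10.4 and 11.8 to 4.98 and 4.44 CPM (-1.24 ± 0.18). The 4 genes named with values here had both P14 libraries below both P7 libraries.

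The 2 cone opsins differed. Opn1mw, the pigment for middle wavelengths, was at 0.519 and 0.490 CPM at P7 and 6.22 and 5.81 CPM at P14 (3.56 ± 0.26; adjusted p = 3.82e-09). Opn1sw, the pigment for short wavelengths that appears first in development, was at 83.0 and 78.5 CPM and then 39.4 and 41.2 CPM. The groups did not overlap, but its difference of -1.0 ± 0.54 did not pass (adjusted p = 0.195). Thrb, the thyroid hormone receptor needed for the middle-wavelength opsin, rose from 38.9 and 34.9 to 56.0 and 54.1 CPM (0.58; adjusted p = 1.16e-06). Opn1mw and the cone arrestin Arr3, which fell by 0.49, are X-linked, and the call of Arr3 was lost without replicate 1 at P14 (adjusted p = 0.0833) or replicate 2 at P7 (adjusted p = 0.0509).

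The transcription factors of photoreceptors split evenly: of 17, 6 rose and 6 fell, with a median of -0.02. Crx, at 579 and 582 CPM at P7 and 583 and 598 CPM at P14, differed by 0.02 ± 0.04 and did not pass, nor did the rod factor Nr2e3 (-0.10 ± 0.05). Nrl, which sets rod fate, rose by 0.27 ± 0.06, from 552 and 557 to 665 and 673 CPM, a call lost with library size alone (adjusted p = 0.192) and with scaling on inner retinal neuron genes (adjusted p = 0.359). Esrrb, a nuclear receptor that rods need to survive, went from 9.13 and 9.35 to 78.1 and 77.7 CPM (3.07 ± 0.09; adjusted p = 1.12e-15). Factors of early photoreceptor precursors were among those that fell: Prdm1 from 98.5 and 95.7 to 38.1 and 37.6 CPM (-1.36), Otx2 from 365 and 361 to 212 and 199 CPM (-0.82) and Neurod1 from 313 and 305 to 204 and 205 CPM (-0.59).

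Genes that build the outer segment and its connecting cilium rose in part. Of 21 outer segment genes 15 rose and 1 fell (18.7% and 16.3% of all genes), with a median of 0.52. Prph2, which shapes the disc rim, went from 498 and 501 to 1088 and 1084 CPM (1.12 ± 0.05) and its partner Rom1 from 306 and 313 to 489 and 482 CPM (0.65). Fscn2, an actin bundler of photoreceptors, rose by 2.02, Impg1, a proteoglycan of the matrix around outer segments, by 1.82, and Aipl1, the chaperone of the phosphodiesterase, by 1.70. The member that fell was the X-linked Rpgr, a cilium protein, from 41.4 and 39.9 to 27.8 and 29.6 CPM (-0.50). Among 20 genes of general ciliary transport 10 rose and none fell, but 6 of these calls were lost and their median of 0.16 became -0.02 with library size alone, and 5 were lost with scaling on inner retinal neuron genes. Of 10 tested visual cycle genes 7 rose and none fell, among them Rdh8 (from 17.5 and 19.2 to 56.7 and 51.2 CPM; 1.55) and Rdh12 (from 59.1 and 55.2 to 156 and 154 CPM; 1.44), which reduce released retinal in photoreceptors.

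Photoreceptor channels and pumps followed, with 10 of 12 up and none down (median 0.58). Kcnj14, an inwardly rectifying potassium channel, was at 1.19 and 1.42 CPM at P7 and 32.2 and 34.4 CPM at P14 (4.66 ± 0.11; adjusted p = 1.44e-16). Kcnv2, a potassium channel subunit of photoreceptors, went from 85.0 and 89.4 to 182 and 182 CPM (1.06).

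At the photoreceptor terminal 12 of 20 ribbon synapse genes rose and 1 fell (median 0.37). Slc17a7, which loads glutamate into vesicles, went from 194 and 186 to 537 and 531 CPM (1.49 ± 0.10; adjusted p = 6.01e-08). The calcium channel Cacna1f went from 94.0 and 96.6 to 215 and 216 CPM (1.18), and its modulator Cabp4 from 9.28 and 9.55 to 48.3 and 51.3 CPM (2.40). Cacna1f is X-linked. Complexins clamp vesicle fusion: the ribbon form Cplx4 rose from 25.1 and 25.9 to 106 and 113 CPM (2.10), while Cplx2, of conventional synapses, fell from 329 and 318 to 134 and 137 CPM (-1.25). Rims1, a scaffold of the release site, was the ribbon gene that fell (-0.69). Among 18 general vesicle and release genes 14 rose and 2 fell, with a median of 0.46; 7 of these 16 calls were lost with library size alone.

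The ON bipolar cascade rose with its input. Of 12 genes 11 rose and none fell, with a median of 1.06. Grm6, which encodes mGluR6, went from 125 and 123 to 224 and 223 CPM (0.85 ± 0.06) and the channel Trpm1 from 214 and 203 to 453 and 453 CPM (1.12 ± 0.05; adjusted p = 2.40e-12). The largest rises were in Gng13, a G protein gamma subunit, from 1.87 and 0.930 to 10.4 and 10.7 CPM (2.92 ± 0.28), and in Pcp2, a modulator of Go, from 7.62 and 7.54 to 39.3 and 41.3 CPM (2.41 ± 0.15). The member that did not pass was Gnb3, which cones share. In the wider list of 19 bipolar genes 8 rose and 5 fell; Sebox, a homeobox gene of rod bipolar cells, rose by 2.69 and Vsx1, of cone bipolar cells, fell from 38 and 32.8 to 25.1 and 22.9 CPM (-0.56).

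Genes of inhibition in the inner retina rose in 13 of 18 cases, with none down (median 0.58). Of these 13 calls 4 were lost with library size alone and 3 with scaling on inner retinal neuron genes. The GABA receptor rho subunits of bipolar terminals went from 13.3 and 11.1 to 33.6 and 35.0 CPM for Gabrr1 (1.5) and from 0.778 and 0.343 to 8.09 and 8.87 CPM for Gabrr2 (3.92 ± 0.34). Slc12a5, the transporter KCC2 that lowers chloride in mature neurons, went from 163 and 157 to 362 and 349.5 CPM (1.15 ± 0.11; adjusted p = 9.72e-06). Slc12a2, the transporter NKCC1 that loads chloride, rose by 0.44, and the glycine receptor subunit Glra3 by 1.53. In Glra4 there were 2 counts over both P7 libraries and 26 over both P14 libraries, 14.0 times as many (95% interval for counting error, 3.50 to 122). Of 23 glutamate receptor genes 7 rose and 3 fell, with 5 or 6 of these 10 calls lost without any 1 library and 5 with library size alone. Of 16 voltage-gated channel genes 6 rose and none fell.

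In other neuron classes genes moved in both directions, more often up among amacrine genes (median 0.23). Among 20 amacrine genes 9 rose and 3 fell; the peptide gene Cck rose from 3.94 and 4.21 to 12.3 and 12.2 CPM (1.58), the glutamate transporter Slc17a8 from 2.23 and 1.47 to 7.23 and 7.23 CPM (1.97), and Npy fell from 25.4 and 23.5 to 9.86 and 10.6 CPM (-1.26). Of 9 horizontal cell genes 3 rose and 4 fell, and 5 of these 7 calls were lost without replicate 2 at P14 or replicate 2 at P7 and 3 without either other library. The transcription factor Onecut2 went from 13.5 and 12.8 to 4.34 and 3.61 CPM (-1.72 ± 0.16). Of 20 ganglion cell genes 7 rose and 4 fell, and 6 of these 11 calls were lost without replicate 2 at P14 or replicate 1 at P7 and 4 without replicate 2 at P7. The heavy neurofilament Nefh rose from 18.2 and 15.3 to 40.2 and 40.7 CPM (1.27), and the transcription factors Isl2 and Pou4f2 fell by 1.05 and 0.51, the latter with an adjusted p of 0.107 to 0.193 without any 1 of the 4 libraries.

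**Figure D3:**
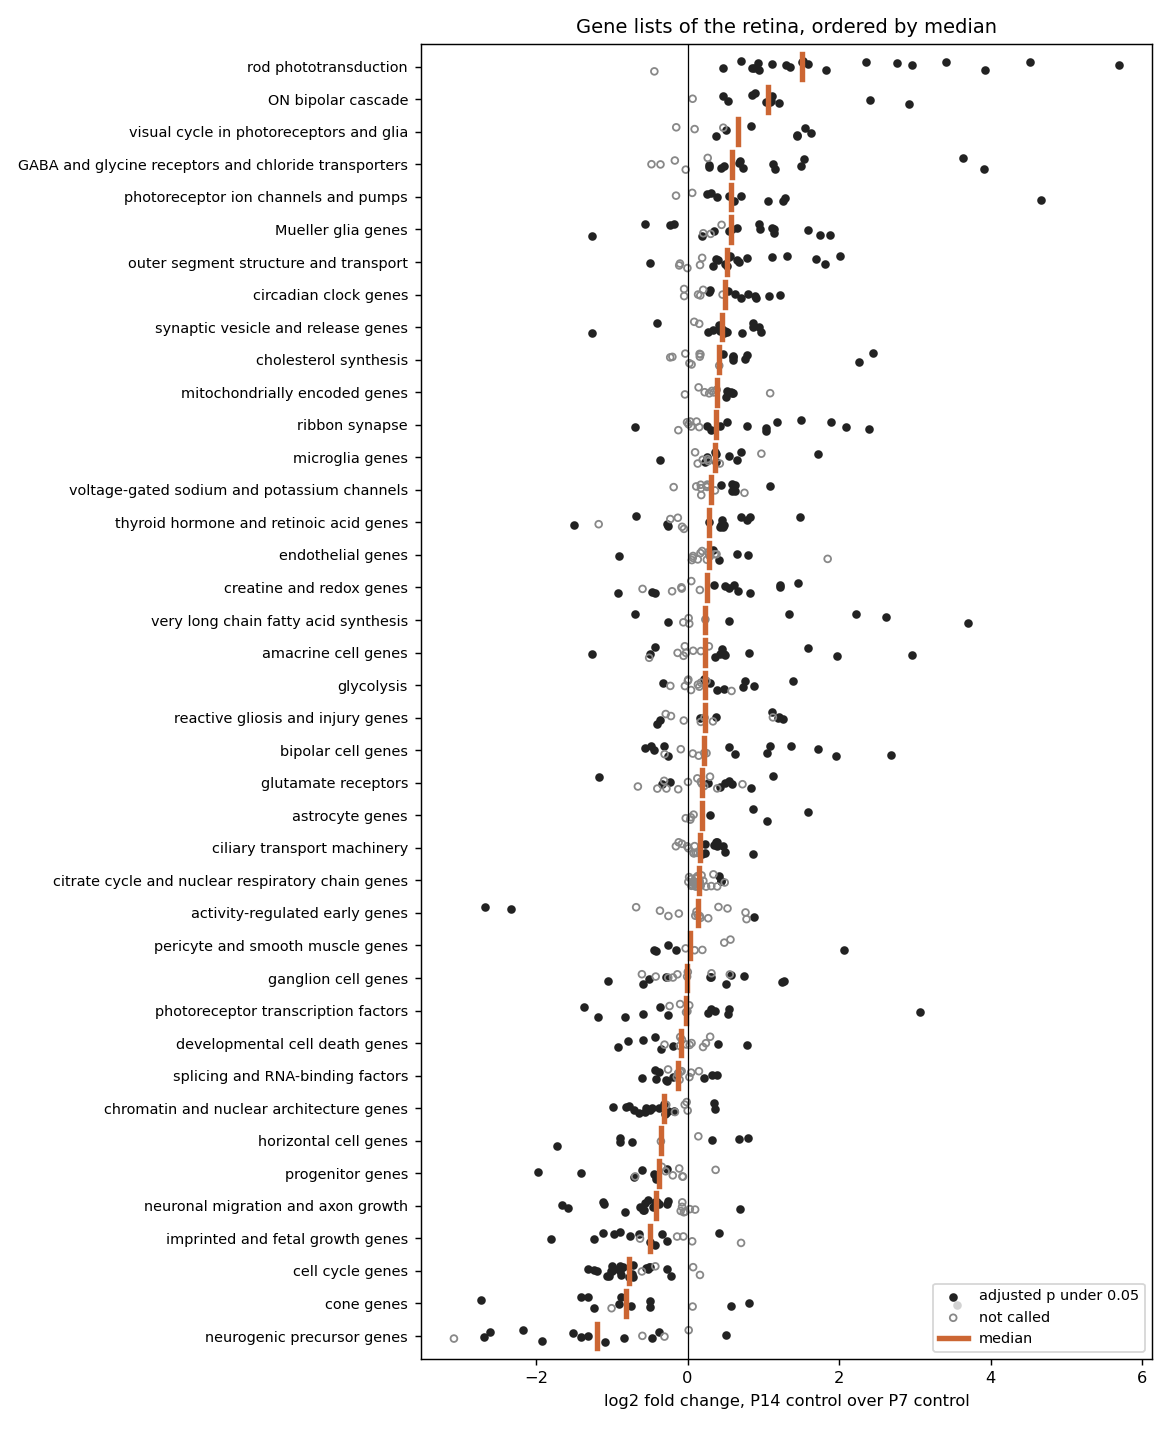
Each row is a gene list of the retina and each point a tested member, placed by its log2 fold change, P14 control over P7 control (x axis); filled points passed an adjusted p of 0.05 and the bar is the list's median. Lists are ordered by median, from rod phototransduction at 1.51 to neurogenic precursor genes at -1.20.

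Müller glia genes rose in 13 of 20 cases and fell in 4 (median 0.57). Glul, the glutamine synthetase that clears synaptic glutamate, went from 341 and 349 to 748 and 773 CPM (1.14 ± 0.05; adjusted p = 1.62e-12), and the water channel Aqp4 from 10.1 and 10.2 to 37.2 and 37.4 CPM (1.87). Kcnj10, the potassium channel with which it sits on end feet, rose by 0.65. Crym, a binder of thyroid hormone, fell from 162 and 163 to 68.3 and 67.6 CPM (-1.26), and Vim and Sox9, which progenitors share with Müller glia, fell by 0.23 and 0.18, the call of Sox9 being lost without any 1 library (adjusted p = 0.0654 to 0.223). Dbi rose from 329 and 344 to 1116 and 1147 CPM (1.75), and stood at 94.1 ± 6.06 CPM (SD, n = 2) in the P30 controls. Rgr, an opsin of Müller glia and pigment epithelium, rose from 62.0 and 63.3 to 186 and 189 CPM (1.58). Beside it, 12 of 14 genes of pigment cells rose, with summed levels of 1227 and 1237 CPM at P7 and 2481 and 2496 CPM at P14; their part in the result was not tested.

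Of 10 genes of myelin and oligodendrocytes, cells of the optic nerve that the mouse retina itself lacks, 9 rose, Mobp from 6.69 and 7.05 to 93.8 and 91.5 CPM (3.75). Of 17 microglia genes 9 rose and 1 fell, and 5 of these 10 calls were lost without replicate 2 at P7, 4 without replicate 1 at P7 and 5 with either library size alone or scaling on inner retinal neuron genes. The integrin Itgam rose from 1.97 and 2.74 to 7.82 and 7.78 CPM (1.72), while P2ry12, of resting microglia, differed by 0.43 and did not pass (adjusted p = 0.168). Gfap, of astrocytes, rose from 121 and 120.3 to 219 and 219 CPM (0.86). Of 18 endothelial genes 4 rose, a share near the 18.7% of all genes, and 1 fell (16.3% of all genes). Of these 5 calls 2 were lost without replicate 1 at P7 or either P14 library. Both P14 libraries lay above both P7 libraries for 16 of the 18 and below them for 1, against 37.1% and 34% of all genes. The receptor Flt1 rose by 0.80, and Angpt2, a factor of vessel remodelling, fell from 14.9 and 12.8 to 6.32 and 8.43 CPM (-0.91). Among 10 pericyte and smooth muscle genes 1 rose and 4 fell; the riser was Vtn, a matrix protein, from 19.8 and 17.3 to 78.3 and 76.8 CPM (2.06).

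Genes of dividing cells were lower at P14. Of 27 cell cycle genes 23 fell and none rose (median -0.77). Hair and epidermis genes made up 0.152% and 0.154% of counts at P7 and 0.0108% and 0.0107% at P14. The part of tissues outside the retina in the fall of the cell cycle genes was not tested. Mki67, a marker of all dividing cells, fell from 113 and 112 to 50.5 and 47.5 CPM (-1.20 ± 0.26; adjusted p = 0.00666). Ccnb1, the mitotic cyclin, fell from 24.4 and 24.0 to 10.1 and 9.36 CPM (-1.31 ± 0.24), and Top2a, the topoisomerase of chromosome condensation, from 86.1 and 82.5 to 41.8 and 40.3 CPM (-1.04 ± 0.26). Without 1 of the 4 libraries at a time 3 to 5 of the 23 calls were lost, Top2a among them (adjusted p = 0.0511 to 0.0773). Pcna, the replication clamp that also serves in DNA repair, was at 89.4 and 91.5 CPM at P7 and 94.4 and 95.9 CPM at P14 (0.07 ± 0.06; adjusted p = 0.342), and Rrm2, a subunit of ribonucleotide reductase, differed by 0.16 and did not pass either.

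Progenitor and precursor genes fell with them. Of 16 progenitor genes 8 fell and none rose (median -0.38): Notch1 went from 122 and 112 to 72.5 and 71.1 CPM (-0.71), its target Hes5 from 7.31 and 8.62 to 2.68 and 3.34 CPM (-1.41), and Fgf15 from 1.82 and 1.42 to 0.375 and 0.438 CPM (-1.97). Of 16 genes of neurogenic precursors 11 fell and 1 rose (median -1.20). The proneural factor Neurog2 fell from 13.3 and 14.1 to 2.63 and 3.45 CPM (-2.17 ± 0.13). The Notch ligand Dll3 fell from 7.42 and 7.34 to 0.964 and 1.31 CPM (-2.69 ± 0.20; adjusted p = 2.24e-09), and Sox4, of newborn neurons, from 138 and 131 to 48.1 and 46.7 CPM (-1.50). Gadd45a, a stress and growth arrest gene, was the member that rose (0.51).

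Genes of migration and axon growth fell in 16 of 24 cases and rose in 1 (median -0.42). Dcx, the X-linked microtubule protein of migrating neurons, fell from 40.7 and 40.1 to 12.3 and 13.3 CPM (-1.66), the tubulin Tubb2b from 239 and 238 to 77.2 and 83.1 CPM (-1.57 ± 0.05) and Stmn1, which destabilises microtubules, from 279 and 271 to 128 and 127 CPM (-1.10). Of 22 genes of chromatin and nuclear architecture 15 fell and 2 rose; Ezh2, a histone methyltransferase, fell by 0.81 and the lamin Lmnb1 by 0.77. Among 17 imprinted and fetal growth genes 11 fell and 1 rose: H19 went from 1692 and 1683 to 774 and 778 CPM (-1.12), Dlk1 from 193 and 183 to 55.2 and 52.3 CPM (-1.81) and Nnat from 281 and 284 to 117 and 122 CPM (-1.24). Connective tissue genes made up 2.37% and 2.38% of unscaled counts at P7 and 2.30% and 2.27% at P14. In scaled CPM, as used for H19 and Dlk1, their sums were 21978 and 22118 at P7 and 24315 and 23929 at P14. The part of connective tissue in the levels of H19 and Dlk1 was not tested. Of 18 genes of developmental cell death 6 fell and 2 rose.

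Among metabolic genes, 9 of 20 of glycolysis rose and 1 fell, 4 of these 10 calls being lost with library size alone or scaling on inner retinal neuron genes, with Hk1, the first enzyme, up by 0.76 and Aldoc by 0.88. The lactate transporter Slc16a1 rose from 29.9 and 31.6 to 80.2 and 81.9 CPM (1.40). Of 28 nuclear genes of the citrate cycle and respiratory chain 3 rose and none fell, against 18.7% of all genes that rose. All 3 calls were lost with scaling on inner retinal neuron genes. For 25 of the 28 both P14 libraries lay above both P7 libraries and for 0 below, against 37.1% and 34% of all genes. This shift was small and rested on the scaling: the list's median of 0.15 became -0.04 with library size alone. Of 13 mitochondrially encoded genes 5 rose, and 3 to 5 of these calls were lost without 1 library and all 5 with scaling on inner retinal neuron genes. Of 16 clock genes 10 rose and none fell, and 4 of these calls were lost without replicate 1 at P14, without either P7 library or with library size alone. They included Dbp from 16.5 and 16.6 to 38.9 and 38.4 CPM (1.22) and Bhlhe41 from 23.8 and 21.7 to 47.8 and 48.5 CPM (1.08); the hour of dissection is not given. Dio2, which activates thyroid hormone, rose from 6.59 and 7.78 to 19.7 and 20.5 CPM (1.48 ± 0.13; adjusted p = 3.42e-08). Of 17 activity-regulated early genes 1 rose and 2 fell: Egr2 went from 8.92 and 10.8 to 1.71 and 1.37 CPM (-2.67), Egr3 from 13.7 and 13.5 to 2.63 and 2.79 CPM (-2.33) and Fos from 8.04 and 8.57 to 14.6 and 15.9 CPM (0.87), and the call of Fos was lost without any 1 library (adjusted p = 0.0623 to 0.110). The median of that list, 0.13, became -0.05 with library size alone.

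In the cholesterol list 8 of 17 rose and none fell, led by Insig1 (from 49.5 and 48.7 to 269 and 266 CPM; 2.45), a brake on sterol synthesis, and the enzyme Sqle (from 78.3 and 73.0 to 366 and 359 CPM; 2.26). The fatty acid elongase Elovl5 rose from 278 and 273 to 3551 and 3603 CPM (3.70) and stood at 56.3 ± 3.09 CPM in the P30 controls. Elovl4, the elongase of photoreceptors, was at 159 and 171 CPM at P7 and 169 and 165 CPM at P14 (0.01 ± 0.06) and did not pass; in its list of 11 genes of very long chain fatty acids 5 rose and 2 fell. Of 16 secretory gland genes 5 rose and 8 fell, with a median of -0.85 and summed levels of 1544 and 1594 CPM at P7 and 6767 and 6911 CPM at P14. The desaturase Scd1 rose from 224 and 234 to 2190.2 and 2202 CPM (3.26), the elongase Elovl3 from 22.4 and 22.6 to 201 and 201 CPM (3.16), and Bpifa6, a secreted lipid-binding protein, from 846 and 877 to 4139 and 4269.6 CPM (2.29; adjusted p = 0.218 with DESeq2). At P30 these 3 stood at 82.5, 0.0618 and 0 CPM. The part of gland RNA in the rise of the lipid genes was not tested.

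Several of the largest changes in the whole table were in genes of tissues outside the retina. Of 12 hair and epidermis genes 10 fell and none rose (median -5.49): the keratin Krt71 went from 236 and 236 to 0.214 and 0.493 CPM, Krt27 from 3491 counts over both P7 libraries to 1 count over both P14 libraries, and Krt73 from 1147 counts to none, at least 356-fold lower against a limit of 3 counts over the group. Secreted proteins of glands fell too, Mucl2 from 1667 and 1757 to 16.3 and 16 CPM (-6.73), Pip from 557 and 618 to 5.14 and 4.55 CPM (-6.92) and Scgb2a2 from 307 and 324 to 1.34 and 0.767 CPM (-8.21). The neonatal muscle myosin Myh8 fell from 748 and 763 to 139.6 and 147 CPM (-2.40) and the adult fast form Myh4 rose from 39.5 and 40.1 to 215 and 215 CPM (2.43). Lens genes were the most abundant of these, with Cryaa at 13435 and 13703 CPM at P7 and 21606 and 21943 CPM at P14 (0.68 ± 0.17; adjusted p = 0.0110). Its call was lost with library size alone (adjusted p = 0.0651) and without replicate 1 at P7 (adjusted p = 0.0542). With lens genes left out of the scaling factors, 3594 genes rose and 3970 fell.

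**Figure D4:**
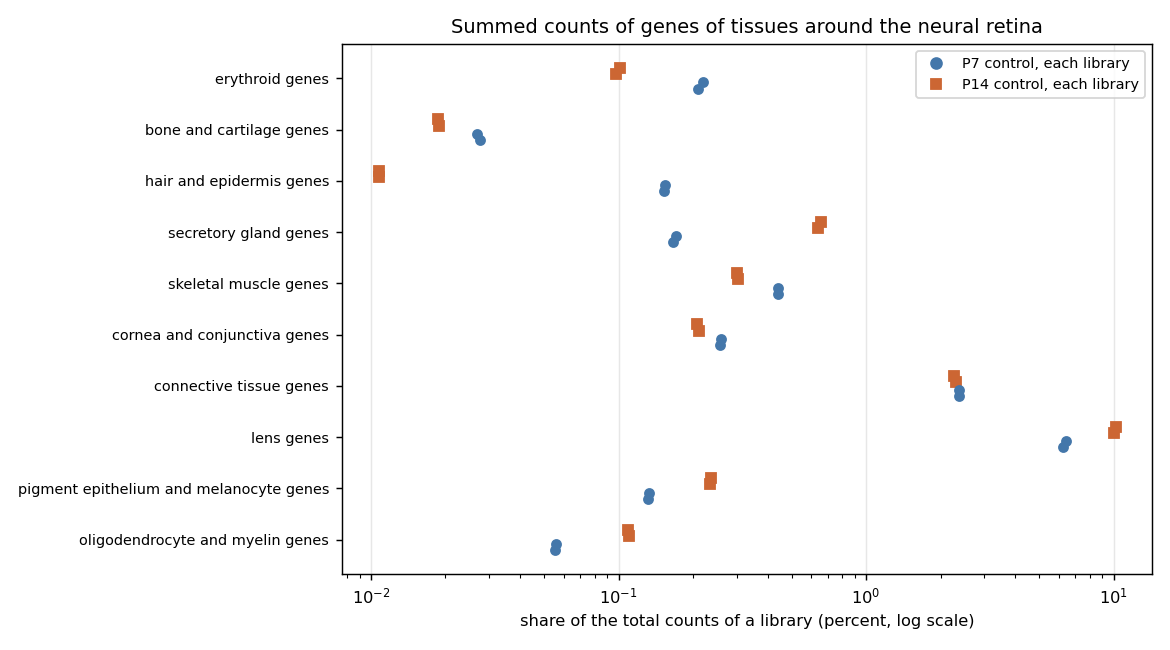
Share of a library's total counts (x axis, percent, log scale) that fell on genes of each of 10 tissues around the neural retina (y axis), for each P7 control library (circles) and P14 control library (squares). Lens genes were the largest share at both ages, gland, lens, pigment and myelin shares were higher at P14, and hair and erythroid shares were lower.

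By the rule for naming genes, the 12 largest rises among genes with at least 5 CPM at the higher age were Xist, Gnat1, Cyp4a10, Sptlc3, Drd4, Kcnj14, Guca1b, Aox4, S100a8, Pdzph1, Aqp8 and Pitpnm2os2. They fall apart by their level at P30. Drd4, the dopamine receptor of photoreceptors, went from 3.01 and 2.89 to 94.3 and 89.6 CPM (4.96 ± 0.22; adjusted p = 9.38e-09) and stood at 169.8 ± 20.5 CPM at P30. Pdzph1 went from 0.778 and 0.685 to 15.2 and 13.5 CPM (4.28) and stood at 112 CPM at P30. Pitpnm2os2, which is antisense to another gene and cannot be told apart from it if the counting ignored strand, went from 0.415 and 0.636 to 9.54 and 9.47 CPM and 69.9 CPM at P30.

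Other leading rises were near 0 again at P30. Sptlc3, a subunit of the enzyme that begins sphingolipid synthesis, went from 3.63 and 3.23 to 131 and 138 CPM (5.30 ± 0.10) and stood at 0.0577 CPM at P30. Aox4, an aldehyde oxidase, went from 4.77 and 4.11 to 102 and 100.4 CPM and 0.0577 CPM at P30. Cyp4a10, a fatty acid hydroxylase, was at 7.93 and 7.61 CPM at P14 and 0.150 CPM at P30, and Aqp8, a water channel, at 45.5 and 43.4 CPM at P14 and 0.118 CPM at P30. S100a8, of neutrophils, went from 1.40 and 1.03 to 22.8 and 24.9 CPM (4.29) and 0.505 CPM at P30. The desaturase Scd3 showed the same course at a higher level, from 89.8 and 90.6 to 1467 and 1460.2 CPM (4.02) and 3.16 CPM at P30.

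The step from P7 to P14 was set against the steps before and after it in controls. These comparisons share the P7 or the P14 libraries, so values are given side by side. By Xist, at 1.12, 2.13, 1202 and 0.635 CPM, and Kdm5d, at 52.7, 48.3, 0 and 48.3 CPM from P1 to P30, the P14 controls alone are female. A level that is lower or higher at P14 than at P7 and P30 therefore cannot be told apart from the difference in sex, which turns back from P14 to P30. For 5441 genes (25.8%) the log2 fold change from P7 to P14 differed from that from P1 to P7, with 2649 higher and 2792 lower (1503 and 4178 with library size alone). Without 1 of the P7 libraries at a time that count was 3411 and 3331. For 7531 genes (35.7%) it differed from that from P14 to P30, with 4429 higher and 3102 lower (2826 and 6160 with library size alone, 3708 and 4112 without lens genes in the scaling).

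Rod genes rose more before P7 than after it. The median of the 21 genes was 3.98 from P1 to P7, 1.51 from P7 to P14 and 1.27 from P14 to P30. The P7 to P14 step was smaller than the step before for 15 genes (13.2% of all genes) and larger for 3 (12.5% of all genes), which were Gnat1, Slc24a1 and Guca1b. Gnat1 rose by 3.98 from P1 to P7, 5.70 from P7 to P14 and 2.29 from P14 to P30, where it reached 6163 CPM; its difference from the step before was 1.72 (adjusted p = 1.24e-06). Pde6b rose by 5.07, 0.71 and 1.23 over the 3 steps. Guca1a, which did not pass from P7 to P14, rose by 5.51 from P14 to P30, to 400.1 CPM (difference of steps -5.95; adjusted p = 1.82e-08).

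Among cone genes the median log2 fold change was 0.19 from P1 to P7, -0.81 from P7 to P14 and 1.93 from P14 to P30, and for 11 of 14 the middle step was below the later one (14.7% of all genes). Arr3 went from 1.24 CPM at P1 to 25.0 at P7, 17.8 at P14 and 246 at P30, and Gnat2 from 19.6 to 20.2, 14.4 and 99.1 CPM. Ccdc136 followed the same path, at 103, 38.6 and 119.9 CPM at P7, P14 and P30. Gngt2, by contrast, stood at 23.1 CPM at P30, below its P7 level.

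Cell cycle genes fell less from P7 to P14 than from P1 to P7. The median was -1.85 from P1 to P7, -0.77 from P7 to P14 and -0.84 from P14 to P30, and the middle step was above the first for 20 of 27 genes (12.5% of all genes) and below it for none. The middle step was also above the first for 14 of 16 progenitor genes. For 9 of 20 ganglion cell genes the middle step was above the first, in which their median was -0.62. Müller glia showed turns in single genes: Glul fell by 0.80 from P1 to P7 and rose by 1.14 from P7 to P14 (difference 1.94; adjusted p = 5.11e-12). Insm1, a precursor gene also used by young rods, rose by 0.75 and then fell by 1.09 (difference -1.83). Trpm1 rose by 0.24, then by 1.12, and fell by 0.46 after P14. Grm6 stood at 0.224 CPM at P1.

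**Figure D5:**
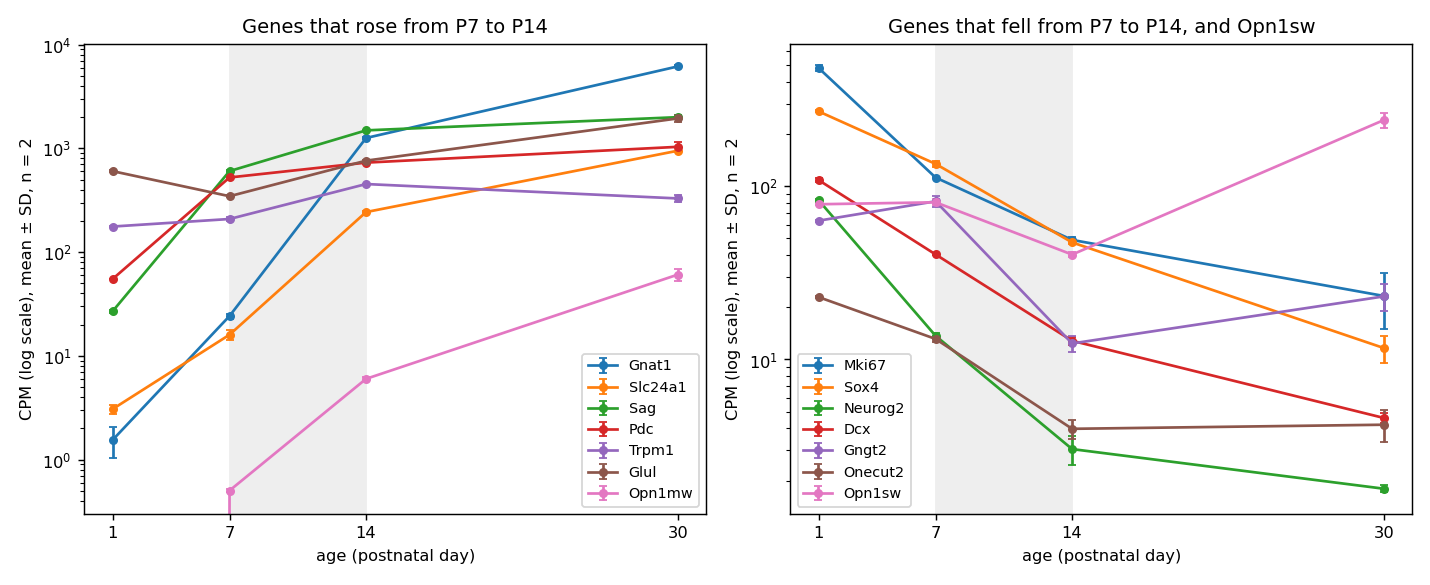
Mean CPM ± SD (2 libraries, log scale, y axis) of named genes in controls at P1, P7, P14 and P30 (x axis, postnatal day), with the P7 to P14 interval shaded; Opn1mw had no count at P1 and is not drawn there. Gnat1 climbs most steeply inside the shaded interval, Pdc and Sag before it, and Opn1sw is lower at P14 than at P7.

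The same interval was also measured in the libraries labelled CKO, which share no sample with the controls. Uxt itself was at 5.76 and 6.41 CPM in the P7 controls and 5.41 and 7.61 CPM in the P14 controls, and at 7.14 ± 0.740 and 8.06 ± 0.123 CPM (SD, n = 2) in the libraries labelled CKO, so the gene's count does not set the labels apart; counts are per gene and do not resolve the floxed exon. Both ages labelled CKO had high Xist, with means of 1370.2 and 810.0 CPM, so the difference in sex between the control ages is not in this step. In the libraries labelled CKO 62.7% of all genes were called from P7 to P14, 30% up and 32.7% down, and 28.3% changed at least 2-fold. Of the 1089 genes that rose at least 2-fold in controls 619 did so there (56.8% of the control list and 23.6% of the 2625 in the libraries labelled CKO), and of the 847 that fell 532 did so (62.8% and 15.9% of 3356). The opposite direction was called there for 100 of the first and 58 of the second.

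The size of the step differed between controls and the libraries labelled CKO for 10242 genes (48.5%). By Xist only the control step runs from male to female libraries, so genotype and sex cannot be told apart in this difference. With 5208 higher and 5034 lower in controls the split was even, but it became 6986 and 3466 with library size alone and 1346 and 12936 with scaling on inner retinal neuron genes, so directions of small differences rest on the scaling. Gnat1 rose in both, by 5.70 in controls and 3.88 in the libraries labelled CKO (difference 1.81; adjusted p = 2.27e-11), where it went from 20.1 to 297 CPM. Pdc rose by 0.48 in controls and fell from 432 to 99.9 CPM in the libraries labelled CKO. Crx stood at 581 and 590.1 CPM in controls, and at 559.7 and 105 CPM in the libraries labelled CKO. Of the 27 cell cycle genes 23 fell in controls (16.3% of all genes). In the libraries labelled CKO 7 fell and 7 rose, where 32.7% of all genes fell and 30% rose. Elovl5, Scd1 and Bpifa6 rose in both, to 14461, 10338 and 15105 CPM in the libraries labelled CKO at P14, where gland genes took 2.13% and 2.14% of counts.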

How the data were processed

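RNA of whole retinas was selected for poly(A) and sequenced on a HiSeq as paired reads of 150 bp, per the labels' protocols. The deposited values are raw counts of reads per gene for each library; the submitters' processing notes name HISAT2, HTSeq and mm10, and versions, strand setting and filters are not given in the sources used here. Libraries were grouped by their genotype and age labels.

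Genes were filtered with filterByExpr, which left 21115 of 54532, scaled by TMM and fitted with edgeR 4.0.16 (R 4.3.3; robust quasi-likelihood test) over all 16 libraries in 8 groups, with 8 residual degrees of freedom. P-values were adjusted over all tested genes by the Benjamini-Hochberg method, and calls were made at 0.05. Standard errors were taken as the size of the log2 fold change over the root of F. Symbols and exon lengths came from the mm10 annotation (GENCODE). On simulated counts for the P7 to P14 control comparison (20824 genes) 200 genes at 1 CPM or more were changed in either direction, the rest being equal. Changes of 1.5, 2 and 4-fold were recovered in 69.9%, 84.4% and 98.4% of cases, and 6.70% of calls were false. In the data 34.9% of genes were called, so these shares need not hold there.

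Genes named are members of the lists, plus, among called genes with at least 2-fold change and no overlap, the 12 largest rises and falls at 5 CPM or more and the 8 each way at 100 CPM or more, and the 4 largest differences each way between steps. These rankings left out genes without a symbol and predicted genes. Predicted genes had symbols of Gm plus digits, ending in Rik, or beginning with AC, AL, BC, CT or LOC plus digits. Members and lists were chosen with earlier results of these data known. Alternatives were other scalings, filters, DESeq2 1.42.0, subsets of libraries and leaving out each library. Some list members count in the totals but are not reported here by name.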

Additional observations from a re-analysis of the deposited data

Results flagged for a closer look

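The change from P7 to P14 in controls differed, by a test of the difference itself in edgeR's quasi-likelihood fit, from the change before it for 5441 genes, from the change after it for 7531 genes and from the same interval in the libraries labelled CKO for 10242 genes. The genes below had the largest differences by the naming rule, given as differences of log2 fold changes. Where a gene is at or near 0 at 1 age, the fitted value depends on the prior count and is no measure of size.

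Compared with the step from P1 to P7, the step was higher for Xist (8.16), S100a8 (6.75), Atoh7 (5.60) and Drd4 (5.33). Atoh7 did not rise from P7 to P14 (-0.60, not called). Its levels were 33.8, 0.458 and 0.298 CPM at P1, P7 and P14. The step was lower for the secretoglobins Scgb2b2 (-22.61), Scgb2a2 (-20.67), Scgb2b3 (-20.65) and Scgb2b7 (-20.37). Compared with the step from P14 to P30 it was higher for Bpifa6 (21.54), Xist (20.02), Ugt1a8 (17.23) and Il20 (16.79). It was lower for the Y-linked Kdm5d (-25.61), Ddx3y (-22.09), Eif2s3y (-21.37) and Uty (-19.16). Compared with the libraries labelled CKO it was higher for Xist (9.89), AA623943 (5.22), Arid3c (4.77) and Crhbp (4.42). Of these only Xist rose in controls. AA623943 and Arid3c fell in controls (-3.51 and -1.43) and fell further in the libraries labelled CKO (-8.73 and -6.20). Crhbp did not pass in controls (-0.23) and fell in the libraries labelled CKO (-4.65). The step in controls was lower for Ddx3y (-11.22), Lipo4 (-8.44), Lipo5 (-7.51) and Scgb2b7 (-7.30).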

How the results depend on the processing

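The count of 7375 genes between P7 and P14 became 1760 when tested against a 1.5-fold change, 6358 with DESeq2, 10002 without the 4 P30 libraries, 10020 with the 4 compared libraries alone, 9110 with the 8 controls and 5460 to 5516 without any 1 of the 4 libraries. The count of 1936 at 2-fold or more became 1205 among genes with at least 5 CPM in at least 2 libraries, and 1715 to 1736 without 1 library. The 5441 genes that differed from the step before became 8288 without the 4 P30 libraries and 3331 to 4558 without 1 library, the lowest values being those without a P7 control. The other differences of steps became 5151 to 6880 (after) and 9141 to 9266 (CKO) without 1 library. With library size alone the medians of ciliary transport (-0.021), activity-regulated early genes (-0.051) and citrate cycle and respiratory chain genes (-0.036) reversed, as did Il6st; those of connective tissue (0.10 to -0.088) and of pericytes and smooth muscle (0.03 to -0.15) also turned negative, as they did with scaling on inner retinal neuron genes (-0.015 and -0.077). The causes were not tested. Replicate numbers did not pair the samples (correlation of deviations -0.013), and with a replicate block 7320 and 1924 genes were called. With 2 libraries per age, changes of 1.5-fold were missed in part in the simulation, and a count of 0 allows up to 3 counts.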
